A study of Mus musculus with 4 samples.

Results

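Cells make cholesterol from acetyl-CoA through mevalonate, isoprenoids and squalene, and make fatty acids from acetyl-CoA through malonyl-CoA. SREBP transcription factors, which SCAP carries to the Golgi when sterols are low and which INSIG proteins hold in the endoplasmic reticulum when sterols are high, turn on both routes. The brain makes most of its own cholesterol, since plasma lipoproteins hardly pass its endothelium. Here 32 genes of these routes (18 sterol enzymes, 8 fatty acid enzymes and 6 regulators and carriers) were taken by symbol from the 17905 genes that the deposited tables list.

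RNA came from endothelial cells of the brain of C57BL/6 mouse embryos at embryonic day 18. The genotypes were STINGECKO, a name usual for loss of the DNA-sensing adaptor STING in endothelial cells, with libraries 1 and 2, and wild type (WT), with libraries 3 and 5. Cre driver, deleted exons, cell isolation and any pooling of animals are not stated in the labels, and the design text speaks of triplicates while 2 libraries of each genotype were analysed here. Whether libraries of a genotype stem from different embryos is not stated either, though the sex genes below differ between the STINGECKO libraries, which therefore are not repeats from 1 embryo. For the WT libraries the spread behind the p-values may be technical. The comparison asked which genes differ between the genotypes.

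Libraries held 18610298 to 22169261 listed reads. The 6 endothelial markers summed to 15910 to 18170 CPM (counts relative to library size, which was scaled by TMM) in the 4 libraries. Tmem173, which encodes STING, was at 3.65 and 8.32 CPM in STINGECKO 1 and 2 and at 4.48 and 6.27 CPM in WT 3 and 5, so its level did not separate the labels, and every direction below rests on the labels; reads from exons outside a deleted part would still be counted. Libraries also differed in sex genes: Xist had 0 reads in STINGECKO 1 and 876, 2347 and 3374 in STINGECKO 2, WT 3 and WT 5, and Ddx3y had 3623 reads in STINGECKO 1 and 0 in WT 3. STINGECKO 2 had 0 reads for 13.2% of the 14100 genes in both tables, against 2.39% to 5.25% in the other libraries.

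None of the synthesis genes passed the genotype test. Of the 32, 30 were in both tables and above the filter on low counts, and 0 of these 30 had an adjusted p under 0.05 by edgeR (quasi-likelihood test, Benjamini-Hochberg adjustment over the 13365 genes tested), where 0% of all genes passed. At an unadjusted p under 0.05 there was 1 member, Acat2, against 4.80% of all genes. DESeq2 also called 0 of the 30, against 0.691% of all genes, and its smallest adjusted p among them was 0.609. Log2 fold changes of STINGECKO over WT lay above 0 in 14 members (48.2% of all genes were above 0) and below 0 in 16. Their median was -0.034, and that of all tested genes was -0.032. The libraries of the genotypes did not overlap in 10 members, 5 with STINGECKO higher (15.4% of all genes) and 5 with STINGECKO lower (19.0% of all genes).

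The tested members together held nearly the same share of reads in every library, a sum set mainly by the abundant members. The 30 tested members summed to 2551 CPM in STINGECKO 1, 2457 in STINGECKO 2, 2408 in WT 3 and 2446 in WT 5. The 17 tested sterol enzymes summed to 911, 861, 846 and 825 CPM in the same order, and the 7 tested fatty acid enzymes to 1101, 1134, 1013 and 1106 CPM. The 6 regulators and carriers summed to 539, 463, 548 and 515 CPM. Scd2 alone made up 44.7% to 57.8% of the fatty acid sum, so a loss in a low member hardly shows there. Single members moved more than these sums: the highest library was less than 2-fold above the lowest in 15 of 30 members, against 31.5% of all tested genes. At a mean of at least 50 CPM it was so in 10 of 13 members, against 66.1% of all genes. The highest library was more than 4-fold above the lowest, or above 0 reads, in 5 of the 30.

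**Figure D1:**
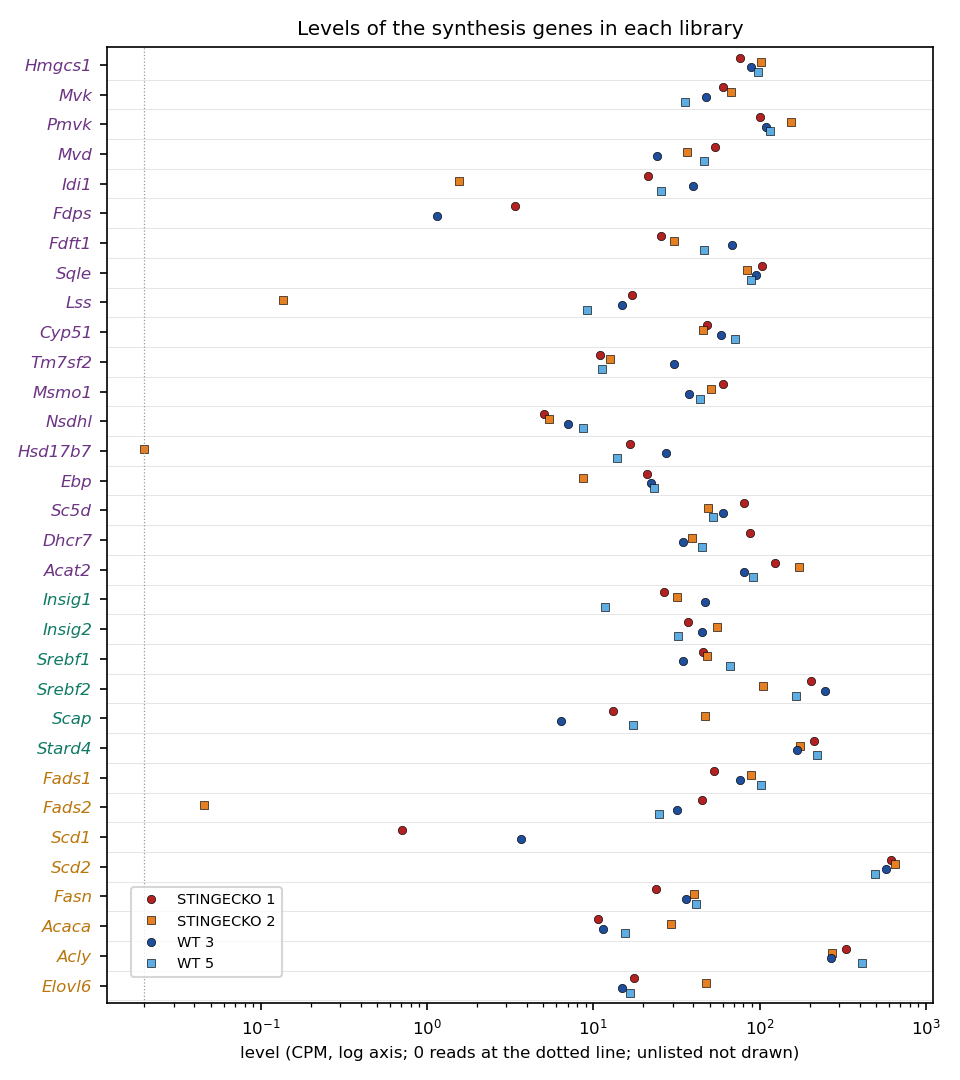
Level of each gene (CPM, log axis) in the 4 libraries, with names coloured by group (purple sterol synthesis, green regulators and Stard4, brown fatty acid synthesis); 0 reads are drawn at the dotted line and libraries in which a gene is not listed are left out. In 15 of the 30 tested genes the highest point is less than 2-fold above the lowest, while Idi1, Lss, Hsd17b7 and Fads2 have a lone low point in STINGECKO 2.

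Per kilobase of annotated exon, the desaturase Scd2 led, with a mean level of 107 CPM per kb over the 4 libraries. Pmvk (70.0), Acly (60.8), Acat2 (46.1), Stard4 (34.7) and Srebf2 (25.2 CPM per kb) followed. Lss (0.958), Acaca (0.983) and Nsdhl (2.30 CPM per kb) had the lowest mean levels among the tested members. Exon lengths join the exons of every annotated transcript, so a gene with many long variants, such as Lss at 10.8 kb, is set low on this scale.

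Promoters of 6 members are shown from RefSeq (GRCm38.p6), as the 250 bases before the transcription start: Hmgcs1 for its sterol element, Idi1, Lss, Hsd17b7 and Fads2 for their low level in STINGECKO 2, and Acat2 for the smallest p. Capitals mark the letters TCACNCCAC (a core of the sterol regulatory element that SREBPs bind), CACGTG (an E-box), CCAAT (bound by NF-Y, an SREBP partner) and GGGCGG (a GC box, bound by Sp1), each on either strand. No match overlapped another in the sequences shown. RefSeq starts differ from the deposited gene positions for some members. The windows of Idi1, Lss, Hsd17b7 and Acat2 reach into the deposited span of the gene, and for Idi1 that part holds every match shown.
Hmgcs1 (chr13:119690101-119690350, plus strand): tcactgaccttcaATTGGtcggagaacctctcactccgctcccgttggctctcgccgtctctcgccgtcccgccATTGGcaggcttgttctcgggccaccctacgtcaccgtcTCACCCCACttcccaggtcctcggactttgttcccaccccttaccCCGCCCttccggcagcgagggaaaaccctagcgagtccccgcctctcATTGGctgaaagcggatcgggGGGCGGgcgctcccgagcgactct
Idi1 (chr13:8885356-8885605, plus strand): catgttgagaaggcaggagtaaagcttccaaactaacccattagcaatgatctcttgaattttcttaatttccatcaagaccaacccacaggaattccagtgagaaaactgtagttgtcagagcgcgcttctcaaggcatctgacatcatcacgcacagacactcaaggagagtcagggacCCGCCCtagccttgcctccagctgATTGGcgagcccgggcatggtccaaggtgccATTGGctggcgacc
Lss (chr10:76531355-76531604, plus strand): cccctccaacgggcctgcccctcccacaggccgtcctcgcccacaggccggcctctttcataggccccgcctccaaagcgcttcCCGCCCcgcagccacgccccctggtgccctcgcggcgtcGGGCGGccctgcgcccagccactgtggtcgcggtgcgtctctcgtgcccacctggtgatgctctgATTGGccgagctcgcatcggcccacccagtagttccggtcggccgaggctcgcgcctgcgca
Hsd17b7 (chr1:169969206-169969455, minus strand): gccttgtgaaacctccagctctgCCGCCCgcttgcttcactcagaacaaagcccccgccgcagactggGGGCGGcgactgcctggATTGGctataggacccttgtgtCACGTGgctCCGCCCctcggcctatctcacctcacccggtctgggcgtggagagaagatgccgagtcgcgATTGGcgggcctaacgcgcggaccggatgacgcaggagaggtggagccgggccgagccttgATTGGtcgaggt
Fads2 (chr19:10101504-10101753, minus strand): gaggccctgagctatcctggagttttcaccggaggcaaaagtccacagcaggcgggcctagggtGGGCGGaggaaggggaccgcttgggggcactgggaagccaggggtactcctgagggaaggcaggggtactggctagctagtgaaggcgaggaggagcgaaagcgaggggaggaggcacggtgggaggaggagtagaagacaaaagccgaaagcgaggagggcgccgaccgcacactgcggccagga
Acat2 (chr17:12960726-12960975, minus strand): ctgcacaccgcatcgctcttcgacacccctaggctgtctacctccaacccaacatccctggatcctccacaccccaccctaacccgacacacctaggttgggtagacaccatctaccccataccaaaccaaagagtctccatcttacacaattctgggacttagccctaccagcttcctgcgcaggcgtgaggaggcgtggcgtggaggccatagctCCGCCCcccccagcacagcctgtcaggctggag

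A match is a description of letters and not a measured site. Promoter entries of 25 of the 32 members were used. Stard4, on chromosome 18, was left out by that chromosome, which the shares of all genes keep. CCAAT was in 19 of these 25 (76%), including Hmgcs1, Mvk, Pmvk and Mvd of the mevalonate arm but not Acat2, against 37.5% of 27025 genes with an entry and 40.5% of those tested here. The GC box was in 21 (84%), against 35.4% of all genes and 64.3% of those tested, and the E-box in 5 (Dhcr7, Hsd17b7, Insig1, Sc5d and Scap; 20%), against 6.86% and 9.66%. The sterol element core was in Hmgcs1 alone (4%), against 1.22% of all genes and of those tested. The 6 members without CCAAT were Acaca, Acat2, Acly, Elovl6, Fads2 and Scap. Of the 4 members low in STINGECKO 2, Idi1, Lss and Hsd17b7 hold CCAAT in the sequences above and Fads2 does not.

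Enzymes of the mevalonate arm were read at 24.1 CPM or more in every library. Hmgcs1, which condenses acetoacetyl-CoA to HMG-CoA, was at 75.7 and 102 CPM in STINGECKO 1 and 2 and at 88.4 and 97.3 CPM in WT 3 and 5. Pmvk, phosphomevalonate kinase, was at 101 and 154 CPM against 110 and 115. In both genes the WT values lay between the STINGECKO values. Mvd, the decarboxylase that ends the arm, was at 53.8 and 36.7 CPM in STINGECKO and 24.1 and 46.4 in WT, which overlap as well.

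Acat2 and Mvk were the mevalonate genes whose genotypes did not overlap. Acat2, the cytosolic thiolase that makes acetoacetyl-CoA (chromosome 17, 12942890 to 12960747, minus strand), was at 124 and 173 CPM in STINGECKO 1 and 2 and at 80.5 and 91.6 CPM in WT 3 and 5. Both STINGECKO libraries were above both WT libraries, with means of 148 ± 34.7 and 86.1 ± 7.85 CPM (SD, n = 2 each). Its log2 fold change was 0.79 (SE 0.30), with an adjusted p = 1.00 by edgeR (unadjusted p = 0.0460). Acat2 shares 39.1% of its 50-base transcript windows with its neighbour Acat3, which had 8, 7, 80 and 4 reads in STINGECKO 1, STINGECKO 2, WT 3 and WT 5, so reads may be split between the copies. Of its windows, 11.2% also occur in Tcp1, which had 2760, 3034, 2915 and 3520 reads in the same order, so the Acat2 count is uncertain. Mvk, mevalonate kinase (chromosome 5, 114444269 to 114460591), was at 60.0 and 67.5 CPM against 47.5 and 35.5, a log2 fold change of 0.62 (SE 0.41; edgeR adjusted p = 1.00).

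The enzymes that build isoprenoids and squalene included 2 members with lower STINGECKO readings. Idi1, which isomerises isopentenyl diphosphate (chromosome 13, 8885501 to 8892451), was at 21.4 and 1.55 CPM in STINGECKO 1 and 2 and at 39.7 and 25.5 CPM in WT 3 and 5, from 392, 34, 858 and 528 reads; the processed pseudogene Gm13502 shares 17.7% of its 50-base windows. STINGECKO 2 alone was far below the others, while STINGECKO 1 lay just under WT 5. Its log2 fold change was -1.51 (SE 1.27; edgeR adjusted p = 1.00). It was -0.602 without STINGECKO 2, -4.38 without STINGECKO 1, -2.64 by limma-voom and -2.44 with the block by deposited table. Fdft1, squalene synthase (chromosome 14, 63145153 to 63177793, minus strand), was at 25.7 and 30.4 CPM in STINGECKO and 68.1 and 46.6 in WT. Both STINGECKO libraries were below both WT libraries, with means of 28.1 ± 3.38 and 57.3 ± 15.2 CPM (SD, n = 2 each) and a log2 fold change of -1.03 (SE 0.48; edgeR adjusted p = 1.00). Exons of Ctsb on the opposite strand cover 18.3% of the exon bases of Fdft1, and Ctsb had 9482, 11319, 11824 and 14295 reads in STINGECKO 1, STINGECKO 2, WT 3 and WT 5. Strand use in counting is not given in the sources used here, so reads of these genes cannot be told apart there.

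Sqle, the monooxygenase that commits squalene to sterols, was at 103 and 84.1 CPM in STINGECKO and 95.2 and 89.2 in WT. Its highest library was 1.22 times its lowest, the smallest such ratio of the 30 tested members. Lss, which closes the sterol rings to give lanosterol, was at 17.2 and 0.137 CPM against 14.8 and 9.21, from 315, 3, 321 and 191 reads. STINGECKO 1 was the highest library for Lss and STINGECKO 2 the lowest. Fdps, which makes farnesyl diphosphate, was listed in 1 table alone, with 62 reads in STINGECKO 1 and 25 in WT 3, so it had at most 4 reads in STINGECKO 2 and in WT 5. Of its 50-base windows, 26.2% occur in transcripts of other genes. These include the pseudogenes Gm3571, with 60, 100, 116 and 58 reads, and Gm5873, with 7, 36, 20 and 16 reads in STINGECKO 1, STINGECKO 2, WT 3 and WT 5, so the Fdps count is uncertain.

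The late enzymes, which turn lanosterol into cholesterol, did not move in 1 direction. Cyp51, the lanosterol demethylase, was at 48.4 and 45.4 CPM in STINGECKO 1 and 2 and 58.6 and 70.9 CPM in WT 3 and 5, without overlap and with a log2 fold change of -0.46 (SE 0.39; edgeR adjusted p = 1.00). Msmo1, the methyl sterol oxidase that acts after it, was on the opposite side without overlap, at 60.5 and 50.8 CPM against 37.6 and 43.5. Nearby steps of the route thus lay on opposite sides. Tm7sf2, a sterol reductase, was at 11.0 and 12.6 CPM against 30.4 and 11.2, where WT 3 alone was high. Its log2 fold change of -0.82 (SE 0.89; edgeR adjusted p = 1.00) turned to 0.072 without WT 3, and exons of Vps51 on the same strand cover 12.1% of its exon bases.

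Hsd17b7, a sterol ketone reductase (chromosome 1, 169949535 to 169969241, minus strand), had 0 reads in STINGECKO 2. Its level was 16.7 and 0 CPM in STINGECKO 1 and 2 and 27.4 and 14.0 CPM in WT 3 and 5, from 307, 0, 592 and 290 reads. STINGECKO 1 lay between the WT libraries, and the log2 fold change was -1.31 with an SE of 2.29 (edgeR adjusted p = 1.00). It was -0.30 without STINGECKO 2, and with all libraries -5.23 by limma-voom and -4.42 with the block by deposited table; without STINGECKO 1 the fitted value was -11.79, which rests on a lone STINGECKO library at 0 reads and is no bound. Nsdhl, which removes methyl groups from sterols, was at 5.07 and 5.44 CPM against 7.02 and 8.68. Ebp, a sterol isomerase, was at 20.9 and 8.68 CPM against 22.18 and 23.1. Both genes are on chromosome X and had lower STINGECKO values without overlap, and the libraries differed in the sex genes given above; the part of sex in this was not tested.

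Sc5d and Dhcr7 act at the end of the route. Sc5d, a sterol desaturase, was at 80.5 and 48.7 CPM in STINGECKO and 60.6 and 52.3 in WT. Dhcr7, which makes cholesterol from its dehydro precursor, was at 87.0 and 39.0 CPM against 34.8 and 45.1. STINGECKO 1 was the highest library for both, while STINGECKO 2 was below both WT libraries for Sc5d and between them for Dhcr7. Over the 17 tested sterol enzymes, 8 log2 fold changes were above 0 and 9 below, with a median of -0.061. Of the 17, 3 did not overlap with STINGECKO higher (15.4% of all genes) and 5 with STINGECKO lower (19.0% of all genes).

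**Figure D2:**
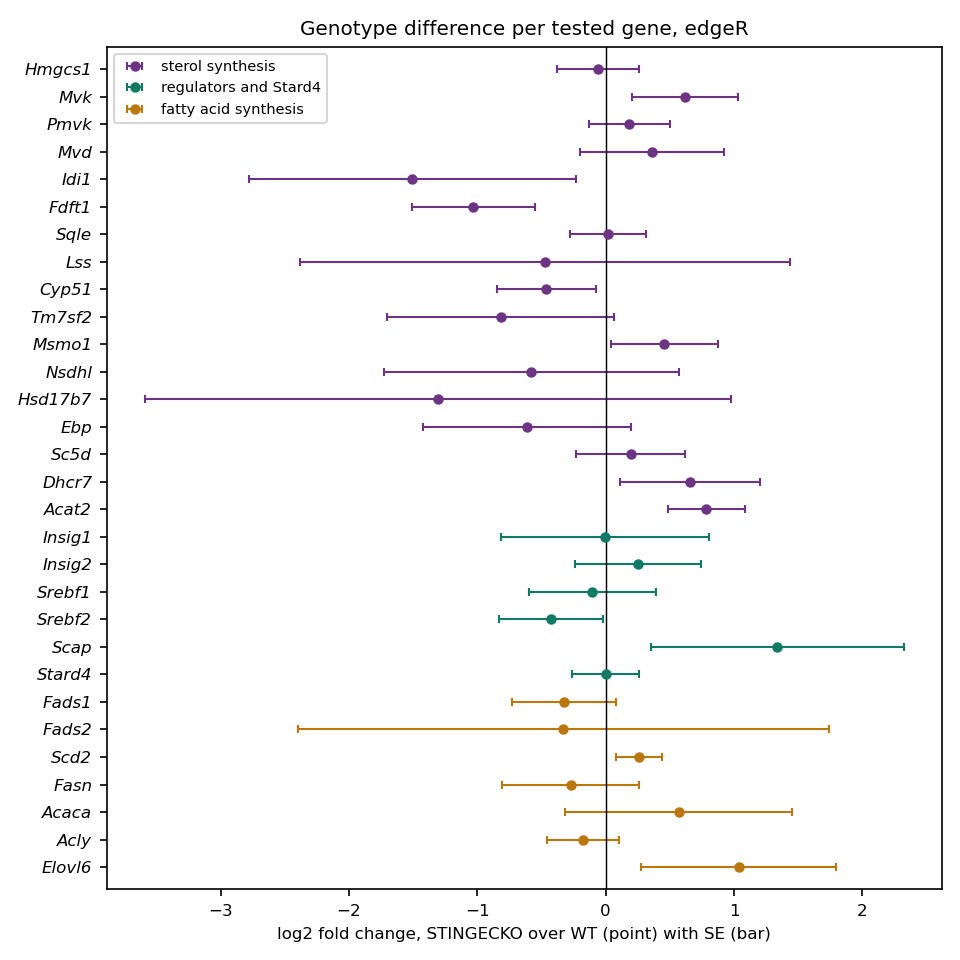
Log2 fold change of STINGECKO over WT for the 30 tested genes (point) with its SE from edgeR (bar), coloured by group. Points fall on both sides of 0, and the longest bars belong to Hsd17b7, Fads2 and Lss, the genes with at most 3 reads in STINGECKO 2.

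The regulators overlapped between genotypes in all 6 cases, where 34.4% of all tested genes did not overlap, so most genes overlap. Srebf2, the SREBP that mainly drives sterol genes, was at 204 and 105 CPM in STINGECKO 1 and 2 and at 248 and 166.5 CPM in WT 3 and 5, a log2 fold change of -0.42 (SE 0.41; edgeR adjusted p = 1.00). That value was -0.019 without STINGECKO 2, -0.976 without STINGECKO 1, -0.106 without WT 3 and -0.676 without WT 5. Srebf1, whose products mainly drive fatty acid genes, was at 45.9 and 48.0 CPM against 34.7 and 66.2, a log2 fold change of -0.10 (SE 0.49) that turned to 0.45 without WT 5. For Srebf1 the STINGECKO libraries lay between the WT libraries, and for Srebf2 the lowest library was STINGECKO 2 and the highest WT 3. Per kilobase, Srebf2 had the higher mean level of the pair, 25.2 against 8.64 CPM per kb.

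Scap, the SREBP escort (chromosome 9, 110333288 to 110384950), was at 13.1 and 46.8 CPM in STINGECKO 1 and 2 and at 6.38 and 17.3 CPM in WT 3 and 5. STINGECKO 2 stood above the rest, and STINGECKO 1 lay between the WT libraries. Its log2 fold change was 1.34 (SE 0.99; edgeR adjusted p = 1.00), and it was 0.155 without STINGECKO 2, 0.793 without WT 3 and 2.24 without WT 5. Insig1, itself a sterol-responsive gene, was at 26.6 and 32.1 CPM against 47.2 and 11.8. The WT libraries were the highest and the lowest, so its log2 fold change was -0.007 (SE 0.81) with all libraries and 1.32 without WT 3. Insig2, its paralogue, was at 37.3 and 55.25 CPM against 45.05 and 32.5, a log2 fold change of 0.25 (SE 0.49) that turned to -0.051 without STINGECKO 2. Stard4, a carrier of sterols between membranes, was at 213 and 175 CPM against 167 and 220, so that each genotype held values near both ends.

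Among fatty acid enzymes, Scd2 was the most abundant member in every library. Scd2, the stearoyl-CoA desaturase that prevails in brain (chromosome 19, 44293676 to 44306864), was at 620.5 and 656 CPM in STINGECKO 1 and 2 and at 572 and 494 CPM in WT 3 and 5, without overlap. Its means were 638 ± 24.9 and 533 ± 55.3 CPM (SD, n = 2 each), and its log2 fold change was 0.26 (SE 0.18; edgeR adjusted p = 1.00), with 0.165 without WT 5. Scd1, the paralogue that prevails in liver, was listed in 1 table alone with 13 reads in STINGECKO 1 and 79 in WT 3, and had at most 4 reads in STINGECKO 2 and in WT 5. Per kilobase, Scd1 was at 0.145 and 0.746 CPM per kb in STINGECKO 1 and WT 3, where Scd2 was at 114 and 105 CPM per kb. Of their 50-base windows, 2.97% of those of Scd1 occur in Scd2 and 2.66% of those of Scd2 in Scd1.

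Fads1 and Fads2, neighbouring desaturases for polyunsaturated fatty acids, behaved unlike each other in STINGECKO 2. Fads1 (chromosome 19, 10182888 to 10196870) was at 53.1 and 89.3 CPM in STINGECKO 1 and 2 and at 76.6 and 101.5 CPM in WT 3 and 5. Fads2 (chromosome 19, 10064164 to 10101503, minus strand) was at 45.2 and 0.0457 CPM against 31.9 and 24.8, from 829, 1, 691 and 515 reads. Fads2 was thus highest in 1 STINGECKO library and at a single read in the other. The log2 fold changes were -0.32 (SE 0.40) for Fads1 and -0.33 (SE 2.07) for Fads2 (edgeR adjusted p = 1.00 for both). With all 4 libraries, limma-voom gave -4.29 and the block by deposited table -3.53 for Fads2. Without STINGECKO 2 that of Fads2 turned to 0.68, and without STINGECKO 1 that of Fads1 turned to 0.006.

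Elovl6 and Acaca were highest in STINGECKO 2. Elovl6, which elongates palmitate, was at 17.5 and 47.6 CPM in STINGECKO 1 and 2 and at 14.97 and 16.7 CPM in WT 3 and 5. STINGECKO 1 lay just above the WT libraries, and the log2 fold change was 1.04 (SE 0.76; edgeR adjusted p = 1.00), with 0.148 without STINGECKO 2 and 1.59 without STINGECKO 1. Acaca, the acetyl-CoA carboxylase that makes malonyl-CoA, was at 10.7 and 29.4 CPM against 11.5 and 15.6. Of the 50-base windows of Acaca, 29.2% also occur in the pseudogene Gm5182, which had 35, 10, 17 and 20 reads in STINGECKO 1, STINGECKO 2, WT 3 and WT 5. Fasn, the fatty acid synthase, was at 23.9 and 40.3 CPM against 35.9 and 41.6, and Acly, which supplies cytosolic acetyl-CoA from citrate, at 330 and 272 CPM against 270 and 412. The genotypes overlapped in Acaca, Fasn and Acly. Of the 7 tested fatty acid enzymes, 3 log2 fold changes were above 0 and 4 below, with a median of -0.179 that was 0.165 without WT 5.

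STINGECKO 2 set several of the widest differences. At most 3 reads there were found for Lss and Hsd17b7, 2 of the 7 members whose mean in the other libraries was 5 to 20 CPM, and for Fads2, 1 of the 11 members at 20 to 50 CPM. Of all tested genes at those levels, 19.3% and 3.19% had at most 3 reads in STINGECKO 2. In the other libraries the same shares were 3.13% to 5.95% at 5 to 20 CPM and 0.0699% to 0.492% at 20 to 50 CPM, with 0 members. In the same library Scap was 3.81 times, Elovl6 2.90 times and Acaca 2.34 times the mean of the other libraries. Of the 30 tested members, 9 were lowest in STINGECKO 2 (30.0%, against 39.3% of all genes) and 9 were highest there (30.0%, against 29.8%).

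**Figure D3:**
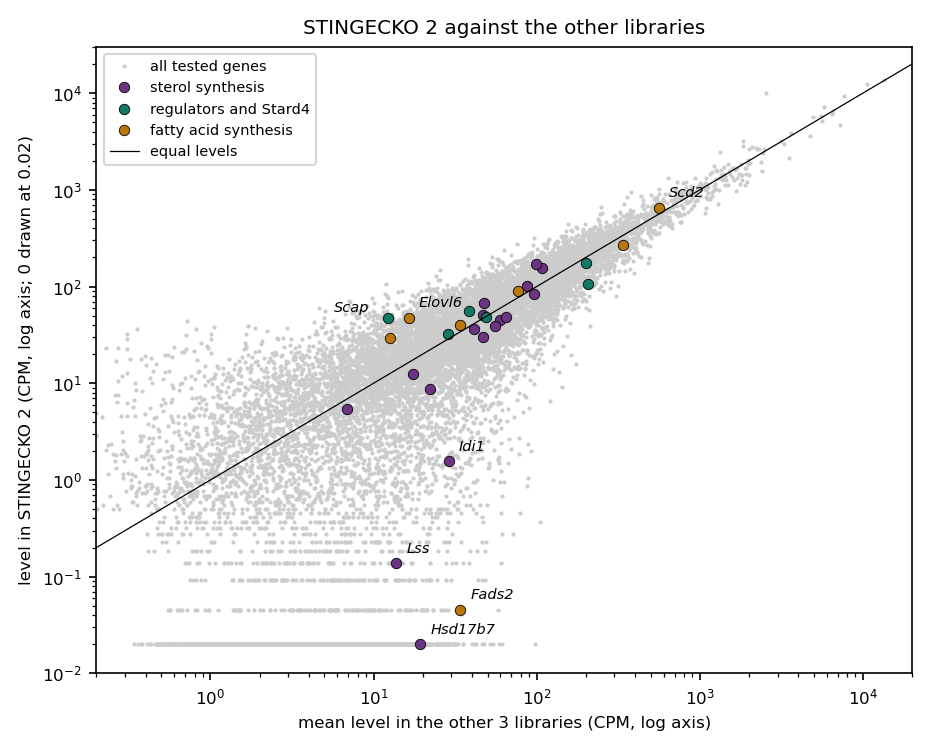
Level in STINGECKO 2 against the mean level in the other 3 libraries (CPM, both axes log; 0 drawn at 0.02), for all tested genes (grey) and the synthesis genes (coloured by group); the line marks equal levels. Scd2 lies near the line, Scap and Elovl6 lie above it, and Idi1, Lss, Fads2 and Hsd17b7 lie far below it within the grey cloud.

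Markers of other brain cells differed between the libraries as well. The 6 astrocyte markers summed to 42.1 CPM in STINGECKO 1, 0.640 in STINGECKO 2, 98.1 in WT 3 and 73.9 in WT 5, and in STINGECKO 2 Aqp4, Aldh1l1 and Acsbg1 had 0 reads and Gfap was not listed. All 5 tested astrocyte markers and all 5 neuron markers had log2 fold changes below 0, and 0 of them passed in edgeR. The 5 neuron markers summed to 48.8 and 12.8 CPM in STINGECKO and 90.3 and 61.9 in WT, with Syn1 at 0 reads in both STINGECKO libraries and Gap43 at 0 in STINGECKO 2. The 4 oligodendrocyte precursor markers summed to 94.6 and 154 CPM against 170.5 and 188, most of it Cspg4. Pdgfra had 21, 2, 0 and 3 reads and Olig2 0, 30, 41 and 0 reads in STINGECKO 1, STINGECKO 2, WT 3 and WT 5. Olig1 had 0 reads in STINGECKO 2. This sum thus follows Cspg4 and cannot be read as an amount of these cells. The 5 pericyte markers summed to 9829 and 10080 CPM against 7885 and 7237. All 5 had log2 fold changes above 0 (48.2% of all genes were above 0), and 0 passed in edgeR. In 3 of them the genotypes did not overlap, with STINGECKO higher (15.4% of all genes). Readings of the synthesis genes may thus include RNA of pericytes, whose part was not tested. The 6 microglia and macrophage markers summed to 393 and 320 CPM against 441 and 1047, and the 5 erythroid markers to 1228 and 2849 against 2513 and 1310. The astrocyte and neuron sums were lowest in STINGECKO 2, as were Idi1, Lss, Hsd17b7 and Fads2; their part in these values was not tested. In bulk RNA, fewer cells of a type and less RNA per cell cannot be told apart.

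Libraries of 1 genotype differed about as much as libraries of different genotypes. The median absolute difference of the 30 members in log2(CPM + 0.5) was 0.55 between the STINGECKO libraries and 0.40 between the WT libraries. Across genotypes the 4 pairs had medians of 0.40 to 0.62. For all tested genes the same values were 0.79 and 0.56 within genotypes and 0.52 to 0.85 across.

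The authors' deposited tables set 1 library against 1 library. The authors' deposited table of STINGECKO 1 and WT 3 marked 4 of 32 members as higher in STINGECKO 1 (Mvd, Fdps, Dhcr7 and Scap), against 21.5% of its genes, and 3 as lower (Fdft1, Tm7sf2 and Scd1), against 19.4%. The authors' deposited table of STINGECKO 2 and WT 5 marked 3 of 30 as higher (Insig1, Scap and Elovl6), against 17.0%, and 5 as lower (Idi1, Lss, Hsd17b7, Ebp and Fads2), against 35.1%. In the authors' deposited tables Scap was the only member marked in both, with fold changes of 2.02 and 2.65. Those marks concern the paired libraries, and Scap overlapped between the genotypes when all 4 libraries were set side by side.

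Other lipid genes gave the same picture of small and mixed differences. Of 39 related genes in 4 lists, 38 were tested and 0 passed in edgeR, with 17 log2 fold changes above 0 and 21 below and a median of -0.09. Of the 38, 9 did not overlap with STINGECKO higher (15.4% of all genes) and 10 with STINGECKO lower (19.0% of all genes). Me1, malic enzyme, was listed in 1 table alone, with 0 reads in STINGECKO 1 and 25 in WT 3.

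For SREBP processing and sterol-regulated degradation, 0 of 8 genes passed, with 2 above 0 and 6 below. Rnf139, a ubiquitin ligase of the endoplasmic reticulum, was at 31.1 and 27.3 CPM in STINGECKO and 10.03 and 18.1 in WT, a log2 fold change of 1.05 (SE 0.71; edgeR adjusted p = 1.00). Mbtps2, the protease that releases SREBPs from the membrane, was at 7.19 and 9.003 CPM against 21.7 and 12.9, a log2 fold change of -1.09 (SE 0.90; edgeR adjusted p = 1.00). The genotypes did not overlap in either.

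For sterol export, storage and the LXR receptors, 0 of 11 genes passed, with 6 above 0 and 5 below. Abcg1, a sterol exporter and LXR target, was at 570.5 and 676 CPM in STINGECKO and 443 and 408 in WT. Its means were 623 ± 74.6 and 425 ± 24.5 CPM (SD, n = 2 each), and its log2 fold change was 0.55 (SE 0.19; edgeR adjusted p = 0.977). Nr1h2, which encodes LXR beta, was at 249 and 353 CPM against 186 and 186, a log2 fold change of 0.69 (SE 0.25; edgeR adjusted p = 1.00). Both STINGECKO libraries were above both WT libraries for each. Abca1, another exporter and LXR target, chosen after its values were seen, lay on the other side, at 383 and 345 CPM against 444 and 408.

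For the isoprenoid branch, 0 of 5 genes passed, with 2 above 0 and 3 below. Pdss1, which makes the side chain of coenzyme Q, had 40 and 11 reads in STINGECKO 1 and 2 and 318 and 167 in WT 3 and 5, a log2 fold change of -3.08 (SE 1.45; edgeR adjusted p = 1.00). Nus1, a subunit of the enzyme that makes dolichol, was at 78.4 and 119 CPM against 92.8 and 58.0, where the genotypes overlapped.

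For fatty acid supply and elongation, 0 of 14 tested genes passed, with 7 above 0 and 7 below. Acss2, which makes acetyl-CoA from acetate and is an SREBP target, had 10 and 14 reads in STINGECKO 1 and 2 and 307 and 155 in WT 3 and 5. Both STINGECKO libraries were below 1 CPM, at 0.545 and 0.640, and the WT libraries were at 14.2 and 7.47 CPM. Its log2 fold change was -4.18 (SE 1.40; edgeR adjusted p = 0.977). Lpin1, a phosphatidate phosphatase and coactivator, was at 61.1 and 87.3 CPM against 41.4 and 30.6, a log2 fold change of 1.04 (SE 0.44; edgeR adjusted p = 1.00).

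**Figure D4:**
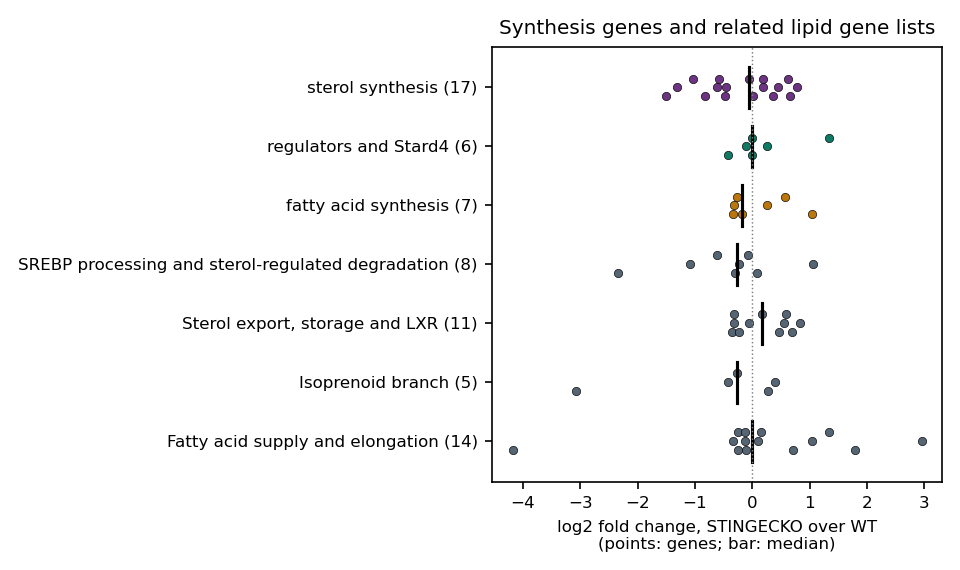
Log2 fold change of STINGECKO over WT for the synthesis genes (coloured) and 4 lists of related lipid genes (grey), 1 point per tested gene with the number of genes in brackets and a bar at the median. Medians run from -0.27 in the isoprenoid branch to 0.18 in sterol export, storage and LXR, and the lowest point, at -4.18, is Acss2.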

How the data were processed

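RNA was sequenced from 2 STINGECKO and 2 WT libraries. The submitters' processing notes name TopHat2 2.0.12, Bowtie2 2.2.3, HTSeq 0.6.0 and mm9; neither the strand setting nor the annotation is given there. Whole-number counts of reads per gene were deposited, beside normalized values that equal CPM, per the file headers and values. The authors' fold columns are ratios of the normalized values of 1 library to another, in which a small value stands in for 0 reads, their log2 columns the log2 of these, and the authors' p-value and q-value columns were not used. Where a listed gene had 0 reads in a library, its partner had at least 5, so genes with no entry were taken to have at most 4 reads. Positions equalled those of GENCODE vM21 (GRCm38) for 25 of 32 members and are printed as deposited.

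Joining the tables by gene identifier left 14100 genes in both; the 3805 genes of a single table entered an alternative only. The genotypes were compared in edgeR 4.0.16 under R 4.3.3 (TMM, filterByExpr at a count of 10, quasi-likelihood test, Benjamini-Hochberg, threshold 0.05), with the SE taken as the log2 fold change over the root of F. On simulated data for this comparison (13365 genes, 3 runs) it called 26.7% of genes changed 4-fold and 48.0% of those changed 16-fold. The simulated spread followed the trend over all genes, without a spread of each gene's own. It also lacked the loss of reads seen in STINGECKO 2, so these shares may be too high for the real libraries. Alternatives were DESeq2 1.42.0, limma-voom (limma 3.58.1), other scalings, other filters, the deposited table as a block, and each library left out. Exon lengths and shared 50-base transcript windows came from GENCODE vM21. The members and lists were chosen with earlier results of these data known. Every member is given with its values. Fold changes are given for up to 5 members per direction with the smallest p and a mean of at least 5 CPM, members with 0 reads, paralogue pairs, and up to 2 genes per related list.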

Additional observations from a re-analysis of the deposited data

How the results depend on the processing

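With 2 libraries per genotype, a two-sided exact permutation test of a single gene cannot go below p = 0.333. By edgeR 0 genes passed (642 at an unadjusted p under 0.05, but 2668 without STINGECKO 1, 595 without STINGECKO 2, 162 without WT 3, 243 without WT 5, 273 with the deposited table as a block and 360 at a mean of at least 5 CPM), and 0 members passed in any alternative; DESeq2 called 87 genes. Over the alternatives, the median of all members ran from -0.065 (library totals without TMM) to 0.032 (without WT 5). The median of all tested genes was -0.063 and 0.047 in the same settings. That of the sterol enzymes ran from -0.212 (without STINGECKO 1) to -0.013 (genes of 1 table added). For all tested genes it was -0.205 and -0.025 there, so the sterol enzymes moved with the whole set of genes. Leaving out 1 library gave medians of -0.132 to 0.165 for the fatty acid enzymes (highest without WT 5) and -0.087 to 0.201 for the related genes, with 0.068 without STINGECKO 2 and 0.201 without WT 5. Of the log2 fold changes of 16 members, 6 of 128 with all libraries and 7 of 64 with a library left out changed sign, and 0 passed. The 6 were of Insig1, at 0.008 with DESeq2 size factors, 0.008 with DESeq2, 0.30 with limma-voom, 0.00 without a filter, 0.003 with genes of 1 table added and 0.307 with the deposited table as a block. With a library left out, Insig1 ranged from -0.676 to 1.316 (0.122 without STINGECKO 1), Fads1 from -0.741 to 0.006, Insig2 from -0.051 to 0.513, Fads2 from -9.104 to 0.677, Tm7sf2 from -1.357 to 0.072 and Srebf1 from -0.492 to 0.446. The genotypes share no replicate number, so the numbers give no pairing of libraries. The sample labels name the deposited table of each library, which groups STINGECKO 1 with WT 3 and STINGECKO 2 with WT 5. The fit with these tables as a block called 0 genes too.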
